A study of Mus musculus with 2 samples.

Results

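The genes described here are the 10 NF-kB genes of the series that encode its subunits and its inhibitors, out of 41605 genes in the count matrices. They were taken by symbol from both matrices, with no filter on their values. The list itself was chosen with earlier results of these data known. Of the 10, 5 are inhibitors (Nfkbia, Nfkbiz, Nfkbid, Bcl3 and Tnfaip3) and 5 are subunits (Rela, Rel, Relb, Nfkb1 and Nfkb2), and each symbol matched a single row of the matrices. Their unique molecular identifiers (UMIs) were added up within each class of cells, separately in each library.

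The series measured RNA in single hippocampal cells of wild-type C57BL/6 male mice aged 10 weeks with 10x Genomics 3' chemistry, version 3. It set out to compare enzymatic release of the cells (30 min at 37 °C) with mechanical release at 4 °C, both followed by a percoll gradient that removes debris and myelin. There are 2 libraries, each made from the pooled cells of 3 animals, and the labels tie neither to a way of dissociation. Both are therefore unassigned, stand for no method, and are called library 2 and library 1.

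NF-kB is a family of dimeric transcription factors that drives inflammatory, survival and stress genes. In resting cells the dimers are held in the cytoplasm by inhibitor proteins such as the product of Nfkbia. Signals from cytokine and pathogen receptors lead to the breakdown of that inhibitor, the dimers enter the nucleus, and Nfkbia and Tnfaip3 are among the genes they switch on, which closes a negative feedback loop. In microglia, the resident macrophages of the brain, the pathway is known for its control of cytokine and chemokine genes.

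Promoter sequences of the feedback inhibitors are shown first, because these genes were called higher together in the immediate early split of library 2 described below, although not in every class comparison. The RefSeq promoter table (build GRCm38.p6) held entries for 7 of the 10 genes, with 12 start sites. The 250 bases before each start were searched on both strands for letters that resemble the sequence NF-kB dimers bind. They were GGG, any 2 bases, TT, any base and CC, and other forms of that sequence were not searched. These letters were chosen with the promoters already known. They occurred in 4.11% of 32851 promoters and in 4.71% of 27025 genes in the table. For the genes described here, they occurred in 6 of the 12 promoters and in 5 of the 7 genes with an entry. Because the letters were chosen with these promoters known, setting these counts beside the shares of all genes tests no enrichment. These 5 were Nfkbia, Tnfaip3, Nfkbid, Rel and Nfkb2. Rela and Bcl3 had no match in this window, and Nfkbiz, Relb and Nfkb1 had no entry. In the immediate early split of library 2, Bcl3 was called higher without a match, and Rel and Nfkb2 held matches but were not called. Whether the letters bear on those calls was not tested. Below, capitals mark the matching bases and all sequences run 5′ to 3′ toward the start site on the gene's own strand. The 3 inhibitor promoters are given whole, at chr12:55492648-55492897 (minus strand) for Nfkbia, chr10:19015411-19015660 (minus strand) for Tnfaip3 and chr7:30422156-30422405 (plus strand) for Nfkbid. For Rel and Nfkb2 only the match and its flanks are given, and the match in Rel is 1 of 2 that overlap by all but 1 base. The first start of Nfkb2 had further overlapping matches that ended 1 and 2 bases before it, which are not shown.
Nfkbia: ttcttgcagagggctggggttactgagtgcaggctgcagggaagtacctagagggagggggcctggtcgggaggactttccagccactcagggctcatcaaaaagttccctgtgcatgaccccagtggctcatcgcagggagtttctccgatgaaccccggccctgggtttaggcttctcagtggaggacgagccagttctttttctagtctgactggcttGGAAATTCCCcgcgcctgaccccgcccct
Tnfaip3: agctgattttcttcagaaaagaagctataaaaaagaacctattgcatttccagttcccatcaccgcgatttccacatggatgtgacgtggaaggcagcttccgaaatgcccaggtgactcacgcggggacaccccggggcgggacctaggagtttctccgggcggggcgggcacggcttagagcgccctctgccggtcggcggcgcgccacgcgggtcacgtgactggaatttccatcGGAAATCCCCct
Nfkbid: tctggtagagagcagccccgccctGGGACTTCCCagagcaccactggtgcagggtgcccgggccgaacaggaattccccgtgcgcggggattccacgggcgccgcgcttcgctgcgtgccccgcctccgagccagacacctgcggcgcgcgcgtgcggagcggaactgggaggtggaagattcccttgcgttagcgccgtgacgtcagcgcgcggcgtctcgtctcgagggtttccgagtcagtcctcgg
Rel: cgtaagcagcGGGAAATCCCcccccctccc
Nfkb2, start 1: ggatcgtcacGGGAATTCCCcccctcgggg
Nfkb2, start 3: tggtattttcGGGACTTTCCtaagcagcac
The match in Nfkbia lay 29 to 20 bases before its start. That in Tnfaip3 lay 12 to 3 bases before start 1, and that in Nfkbid 226 to 217 bases before start 2. Start 2 of Tnfaip3, starts 1 and 3 of Nfkbid and start 2 of Nfkb2 had no match. Subunit genes held such letters too: Rel 92 to 83 bases and Nfkb2 39 to 30 bases before a start. A match describes the letters only and shows no binding.

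All 10 are protein-coding in the GENCODE M21 annotation of GRCm38. Nfkbia lies at chr12:55489410-55492647, Nfkbiz at chr16:55811375-55838899, Nfkbid at chr7:30421732-30428746, Bcl3 at chr7:19808462-19822770 and Tnfaip3 at chr10:19000910-19015657. Rela lies at chr19:5637483-5648130, Rel at chr11:23736847-23770970, Relb at chr7:19606217-19629438, Nfkb1 at chr3:135584655-135691547 and Nfkb2 at chr19:46304320-46312385. Bcl3, Nfkb1 and Nfkb2 overlap other annotated genes there, and no source used here says how reads in the overlaps were counted.

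Library 2 held 6448 barcodes with 29356086 UMIs, and library 1 held 12306 barcodes with 18783691 UMIs. Filters on depth, mitochondrial RNA and doublets left 2075 cells in library 2, with a median of 6433 UMIs, and 5989 in library 1, with a median of 1695 UMIs. The libraries shared 19 barcodes, 3 of them among kept cells. The mitochondrial limit of 10% removed 1406 barcodes of library 2, where the median share before filtering was 13.3%, and 418 of library 1, where it was 1.76%. Cells were given a class one by one from 14 marker lists, and 9.40% of the kept cells of library 2 and 12.5% of those of library 1 passed no gate. Library 2 held 1439 microglia-like, 162 endothelial-like, 79 pericyte-like or smooth muscle-like and 57 choroid plexus-like cells. Library 1 held 681 microglia-like, 4037 neuron-like, 322 astrocyte-like, 111 oligodendrocyte-like and 61 choroid plexus-like cells. Every marker on a class's list had UMIs in that class, and among the 10 genes with the highest fold in a class none came from another class's list, although for neuron-like cells none came from its own. Cells within 3 times of another list, and so near the gate, made up 0 to 25.3% of a class with at least 50 cells, with the highest share in pericyte-like cells. As a gauge of microglial RNA in other cells, 10 microglia genes outside the gate stood in these classes at 0.442 to 1.55% of their level in the microglia-like cells of the same library.

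The 10 genes drew 20323 UMIs in the kept cells of library 2 and 2236 in those of library 1. Microglia-like cells held 67.3% of these in library 2, where they held 62.2% of all UMIs, and 35.5% in library 1, where they held 13.4%. Levels below are counts per 1000000 UMIs of a class (CPM), each from a single pool of animals without replicates, so the 95% Poisson intervals in parentheses cover counting error only. With 3' UMIs, levels are compared between cells for one gene, not between genes.

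The first question was in which cells each inhibitor was found. Nfkbia, whose product keeps NF-kB out of the nucleus, was read in all classes. Outside microglia-like and endothelial-like cells, Tnfaip3 and Bcl3 were measured at 5.11 CPM or less in the classes compared. Where they had 0 UMIs, the level of 3 counts is allowed, up to 14.3 CPM in choroid plexus-like cells of library 1. Bcl3 was low in microglia-like cells too, at 2.73 CPM in library 2 and with 0 UMIs in library 1. In library 2 the Nfkbia level was 696 CPM (680 to 713) for microglia-like cells, 1491 CPM (1445 to 1538) for endothelial-like cells, 166 CPM for pericyte-like cells and 40.5 CPM for choroid plexus-like cells. Within library 1 the level was 118 CPM (102 to 137) for microglia-like cells, 92.1 CPM (60.2 to 135) for oligodendrocyte-like cells, 71.8 CPM (48.8 to 102) for astrocyte-like cells, 23.9 CPM for choroid plexus-like cells and 9.57 CPM for neuron-like cells. Endothelial-like cells were thus highest in library 2, and in library 1 the intervals of oligodendrocyte-like cells met those of both microglia-like and astrocyte-like cells. The oligodendrocyte-like level was 59.1 CPM with shallower cells included and 54.3 CPM with cells weighted equally. Oligodendrocyte-like and astrocyte-like cells of library 2, with 45 and 30 cells too few to be compared, had Nfkbia at 120.3 and 141 CPM. In those astrocyte-like cells 36.7% lay near the gate and the 10 gauge genes stood at 4.99% of their microglia-like level.

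Nfkbiz encodes a nuclear member of the inhibitor family that can also help to switch on secondary response genes. In library 2 its level was 172 CPM (163 to 180) for microglia-like cells, 134 CPM (121 to 149) for endothelial-like cells, 23.0 CPM for pericyte-like cells and 6.39 CPM for choroid plexus-like cells. In library 1 no class was above the 16.1 CPM of microglia-like cells, with 13.1 CPM for neuron-like, 11.6 CPM for astrocyte-like and 4.78 CPM for choroid plexus-like cells. Oligodendrocyte-like cells of that library had 0 UMIs, which allows up to 10.6 CPM, the level of 3 counts. Nfkbid, another nuclear inhibitor, was found mostly in microglia-like cells of library 2, at 69.6 CPM (64.5 to 75.0), while endothelial-like cells had 6.67 CPM, pericyte-like cells 2.56 CPM and choroid plexus-like cells 2.13 CPM. The values outside microglia-like cells rest on 18 UMIs in endothelial-like cells and on 1 UMI each in the other 2 classes. In library 1 Nfkbid was at 9.63 CPM for microglia-like cells, from 15 UMIs, at 5.10 CPM for neuron-like cells, from 40 UMIs, and lower for the other classes.

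Tnfaip3 encodes an enzyme that edits ubiquitin chains and shuts off signals upstream of NF-kB. In library 2 its level was 106 CPM (99.4 to 112) for microglia-like cells, 21.5 CPM (16.3 to 27.8) for endothelial-like cells and 5.11 CPM for pericyte-like cells, with 0 UMIs in choroid plexus-like cells (up to 6.39 CPM). Within library 1 the level was 18.0 CPM (11.9 to 26.0) for microglia-like cells and 1.02 CPM for neuron-like cells, with 0 UMIs in the other 3 classes. Microglia-like cells were the highest class for Tnfaip3 in both libraries. Bcl3, whose product binds dimers of the Nfkb1 and Nfkb2 proteins, had the opposite order in library 2, at 2.73 CPM (1.80 to 3.97) for microglia-like cells and 21.5 CPM (16.3 to 27.8) for endothelial-like cells. Only 1 UMI of Bcl3 was counted in all kept cells of library 1, so its level there was below what this depth can show.

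Among the subunit genes, Rela, Relb and Nfkb1 had UMIs in all 9 class and library pairs compared. Rela, which encodes the main transactivating subunit, was at 59.6 CPM (54.9 to 64.7) for microglia-like cells in library 2, 82.9 CPM for endothelial-like cells, 63.9 CPM for pericyte-like cells and 36.2 CPM for choroid plexus-like cells. In library 1 it was at 61.6 CPM (49.9 to 75.3) for microglia-like cells and between 18.8 and 28.3 CPM for the other classes. Nfkb1, whose precursor is cut to its DNA-binding subunit, was in library 2 at 151 CPM (143 to 158) for microglia-like cells, 103 CPM for endothelial-like cells, 63.9 CPM for pericyte-like cells and 36.2 CPM for choroid plexus-like cells. Microglia-like cells were again the highest class for Nfkb1 in library 1, at 174 CPM (154 to 196), with 99.6 CPM (72.1 to 134) for astrocyte-like cells, 72.7 CPM for neuron-like cells, 14.2 CPM for oligodendrocyte-like cells and 4.78 CPM for choroid plexus-like cells. The oligodendrocyte-like value rests on 4 UMIs, and it was 49.9 CPM with no doublets removed, 31.8 CPM with cells weighted equally and 3.64 CPM with Leiden clusters.

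Rel, which encodes the subunit best known from immune cells, was highest in the microglia-like cells of both libraries. In library 2 its level was 96.3 CPM (90.3 to 103) for microglia-like cells, 23.3 CPM (17.9 to 29.8) for endothelial-like cells, 5.11 CPM for pericyte-like cells and 4.26 CPM for choroid plexus-like cells. Within library 1 the level was 88.0 CPM (73.9 to 104) for microglia-like cells and 7.40 CPM or less for every other class compared. Relb and Nfkb2 form the dimer of the slower non-canonical pathway, and both had their highest level in library 2 in endothelial-like cells. Relb was at 20.4 CPM (17.7 to 23.4) for microglia-like cells in library 2 and 45.2 CPM (37.5 to 53.9) for endothelial-like cells, and at 17.3 CPM for microglia-like cells in library 1. Nfkb2 was at 9.0 CPM (7.23 to 11.1) for microglia-like cells in library 2 and 22.2 CPM (17.0 to 28.6) for endothelial-like cells, and at 7.06 CPM for microglia-like cells in library 1.

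**Figure D1:**
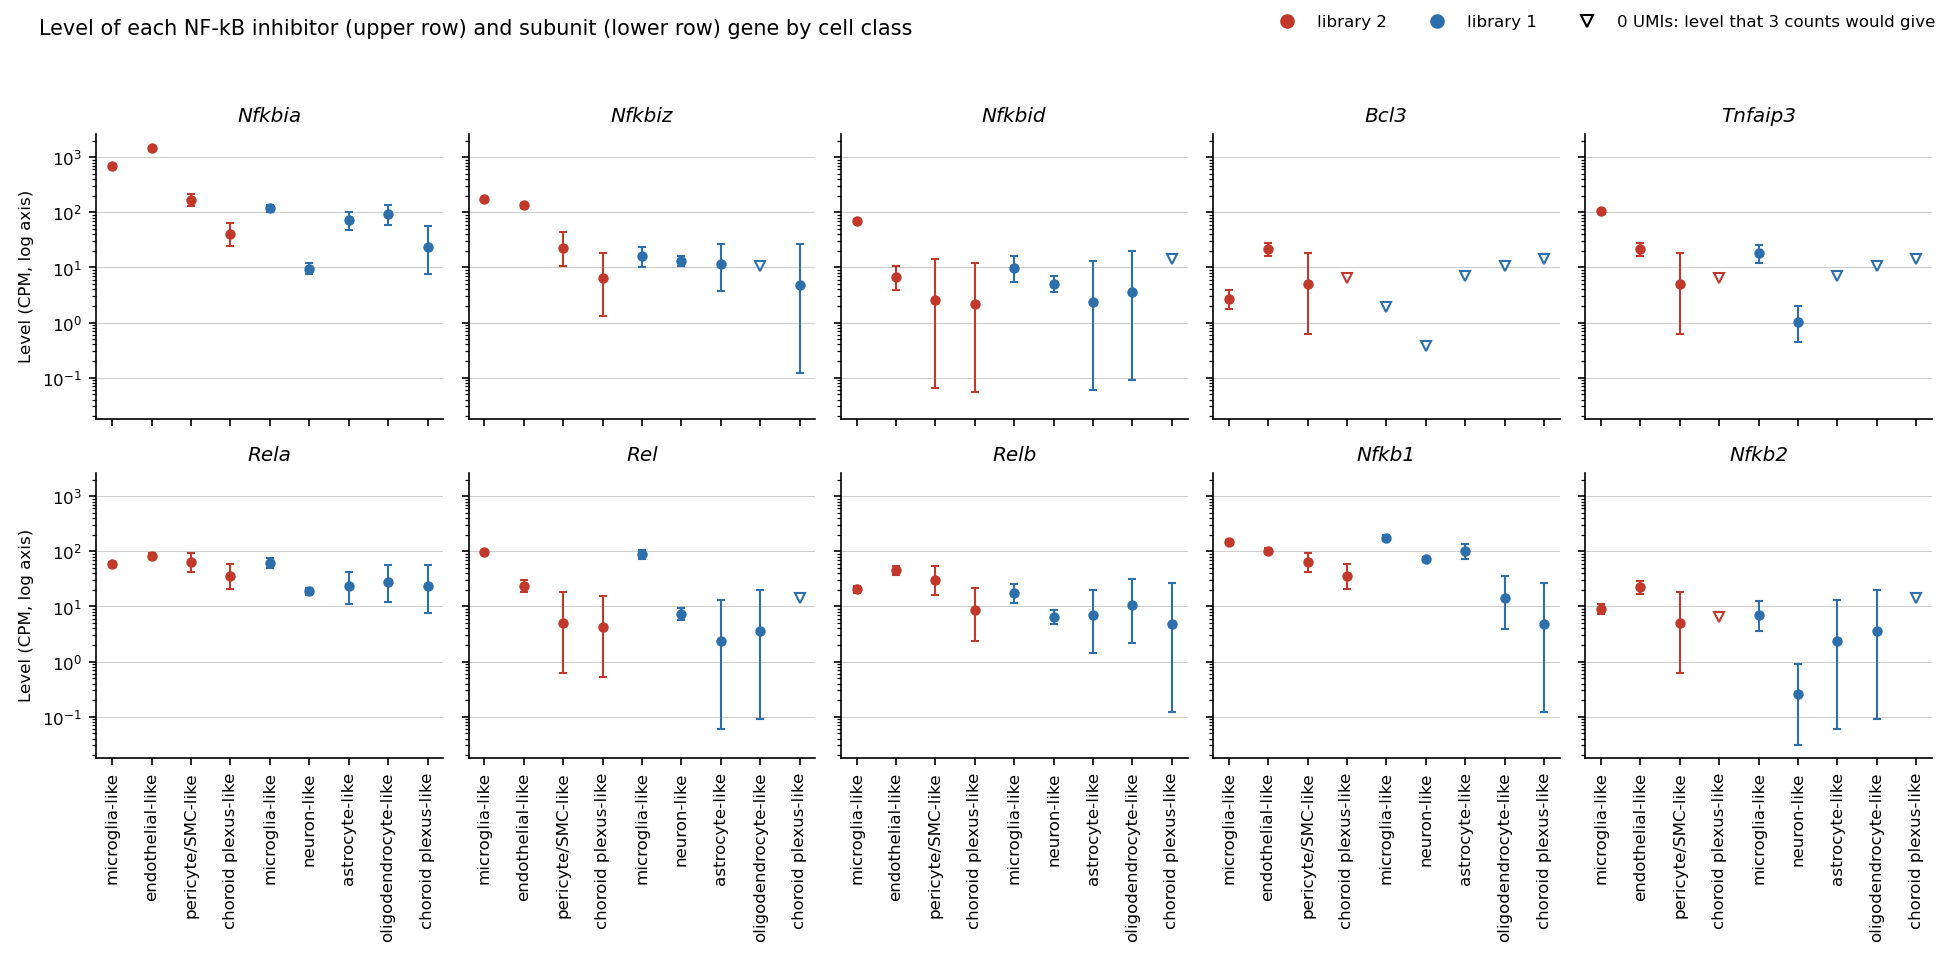
Level in CPM on a log axis of each inhibitor gene (upper row) and subunit gene (lower row) in the 9 class and library pairs with at least 50 cells, library 2 in red and library 1 in blue. Bars are 95% Poisson intervals and open triangles mark the level of 3 counts where no UMI was seen. Nfkbia is highest in endothelial-like cells of library 2 at 1491 CPM, and Rel stands at 96.3 and 88.0 CPM in the microglia-like cells of the 2 libraries and at 23.3 CPM or less elsewhere.

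Microglia-like cells were then set against each other class of the same library, gene by gene. A gene was called higher where its CPM ratio was at least 2 with an exact 95% binomial interval above 1, and lower where it was at most 0.5 with the interval below 1, among genes with at least 10 UMIs in both classes together. A count of 0 was read as 3 counts, and since cells are not replicates no p-value was computed.

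Against endothelial-like cells of library 2, Nfkbid, Tnfaip3 and Rel were called higher in microglia-like cells, and Nfkbia, Bcl3, Relb and Nfkb2 were called lower. This made 3 of 10 higher, with 20.2% of the 14573 genes compared called higher, and 4 of 10 lower, with 20.1% of all genes called lower. The ratio of microglia-like over endothelial-like was 10.4 (6.56 to 17.7) for Nfkbid, 4.92 (3.78 to 6.53) for Tnfaip3 and 4.13 (3.20 to 5.42) for Rel. It was 0.467 (0.449 to 0.486) for Nfkbia, 0.127 (0.0774 to 0.204) for Bcl3, 0.452 (0.359 to 0.571) for Relb and 0.405 (0.289 to 0.572) for Nfkb2. The median log2 ratio was −0.06 over the 10 genes and 0.05 over all genes compared. Both counts are small, and whether they differ from the shares of all genes was not tested.

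The lower calls for Nfkbia and Relb depend on how deep and shallow endothelial-like cells are weighted. The 162 cells ran from 1010 to 109484 UMIs, while no microglia-like cell of library 2 exceeded 28649, and the 54 deepest held 77.4% of the UMIs of the class. Nfkbia stood at 751 CPM (631 to 887) in the shallowest 54 cells, 860 CPM (774 to 953) in the middle 54 and 1685 CPM (1630 to 1742) in the deepest 54. Nfkbiz stood at 54.4, 25.8 and 163 CPM in the same order, and the immediate early genes, a set of 18 rapidly induced genes such as Fos and Jun, at 9374, 11394 and 19990 CPM. With every cell weighted equally, Nfkbia averaged 589 CPM in microglia-like cells and 1042 CPM in endothelial-like cells, Relb averaged 19.1 CPM in microglia-like cells and 30.5 CPM in endothelial-like cells, and only Bcl3 and Nfkb2 of the 4 stayed at or below a ratio of 0.5. Nfkbiz, at 140.4 CPM in microglia-like cells and 70.1 CPM in endothelial-like cells, then passed a ratio of 2. Whether any of these deep barcodes hold more than 1 cell was not tested.

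**Figure D2:**
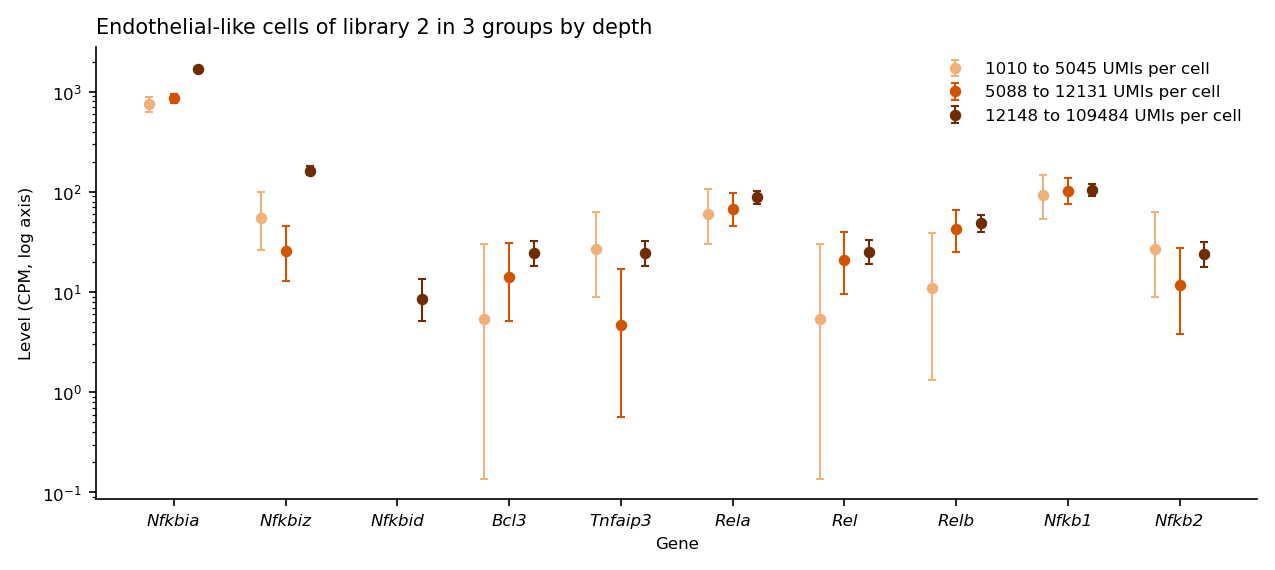
Level in CPM on a log axis of the 10 genes in endothelial-like cells of library 2, in 3 groups of 54 cells by UMIs per cell, from shallow (pale) to deep (dark). Bars are 95% Poisson intervals and a missing point means 0 UMIs. Nfkbia stands at 751, 860 and 1685 CPM and Nfkbiz at 54.4, 25.8 and 163 CPM, while Nfkb1 stays between 92.5 and 104 CPM.

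Against pericyte-like or smooth muscle-like cells of library 2, 6 of the 10 genes were called higher in microglia-like cells, with 11.8% of 13891 genes called higher, and 0 were called lower, with 19.3% of all genes called lower. The 6 were Nfkbia, Nfkbiz, Nfkbid, Tnfaip3, Rel and Nfkb1. Their ratios ran from 2.36 (1.59 to 3.65) for Nfkb1 and 4.19 (3.28 to 5.43) for Nfkbia to 27.2 (4.87 to 1078) for Nfkbid, which rests on 1 UMI in pericyte-like cells. Rela, with a ratio of 0.933 (0.626 to 1.45), and Relb, with 0.666 (0.373 to 1.31), were near 1 or below it. The median log2 ratio was 1.65 over the 10 genes and −0.42 over all genes.

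Choroid plexus-like cells of library 2 gave the same 6 names as higher in microglia-like cells and 0 as lower, with 22.9% of 13812 genes called higher and 18.8% called lower. Nfkbia had a ratio of 17.2 (11.0 to 28.6) and Nfkb1 one of 4.16 (2.59 to 7.16). Tnfaip3 had 0 UMIs in choroid plexus-like cells. Read as 3 counts, this gave a ratio of 16.5, and the lower end of the exact interval was 13.4. Over the 10 genes the median log2 ratio was 3.05, and over all genes it was −0.02.

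Neuron-like cells were the largest class of library 1. Of 9 genes with enough UMIs there (all but Bcl3), 7 were called higher in microglia-like than in neuron-like cells and 0 lower, with 22.6% of 16796 genes called higher and 33.8% called lower. All 5 subunits were among the 7: Rel with a ratio of 11.9 (8.68 to 16.5), Rela with 3.29 (2.51 to 4.28), Relb with 2.66 (1.61 to 4.33), Nfkb1 with 2.39 (2.06 to 2.77) and Nfkb2 with 27.7 (6.04 to 257). The other two were Nfkbia, with 12.3 (9.39 to 16.4), and Tnfaip3, with 17.6 (7.82 to 44.7). Nfkbiz, with 1.22 (0.756 to 1.91), and Nfkbid, with 1.89 (0.968 to 3.49), passed neither limit. The median log2 ratio was 1.72 over the 9 genes and −0.42 over all genes.

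Fewer of the genes separated microglia-like cells from the glial and choroid classes of library 1, where counts were small. Against astrocyte-like cells 3 of 9 were called higher (Tnfaip3, Rela and Rel), with 21.9% of 12388 genes called higher, and 0 were called lower, with 23.4% called lower. Against oligodendrocyte-like cells 3 of 9 were called higher (Rela, Rel and Nfkb1), with 15.4% of 11663 genes called higher, and 0 lower, with 16.6% called lower. Both counts depend on the settings, since each was 6 with every cell weighted equally and 5 with shallower cells included. Against choroid plexus-like cells 4 of 9 were called higher (Nfkbia, Rela, Rel and Nfkb1), with 20.4% of 11387 genes called higher, and 0 lower, with 10.8% called lower. Rel was called higher in microglia-like cells in every one of the 7 class comparisons, Nfkb1 and Tnfaip3 in 5 each and Rela in 4. Nfkbia was called higher in 4, with its opposite call against endothelial-like cells. The ratio of Nfkbia over astrocyte-like cells was 1.65 (1.12 to 2.49) and over oligodendrocyte-like cells 1.28 (0.848 to 2.02) and neither was called.

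The next question was how many cells carried the RNA. Each cell was thinned to 1000 UMIs, since depth differed between classes. Nfkbia was then seen in 27.4% (25.1 to 29.8%, exact binomial) of microglia-like cells of library 2, against 57.4% (49.4 to 65.1%) of endothelial-like and 5.26% of choroid plexus-like cells. In library 1 it was seen in 11.7% (9.43 to 14.4%) of microglia-like cells, against 5.59% of astrocyte-like and 0.966% (0.688 to 1.32%) of neuron-like cells. The neuron-like share, at a median depth of 1719 UMIs before thinning against 2207 UMIs in microglia-like cells, stands here for a class with little of this RNA. Without thinning the Nfkbia shares were 58.8% in microglia-like cells and 91.4% in endothelial-like cells of library 2, and 21.3% in microglia-like cells of library 1.

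Nfkbia RNA was unevenly spread over microglia-like cells of library 2. At 1000 UMIs per cell, the variance of the Nfkbia count was 2.95 times its mean, with 858 UMIs in all and up to 13 in a cell. In endothelial-like cells the variance was 1.59 times the mean, in microglia-like cells of library 1 it was 1.15 times the mean, and in neuron-like cells 0.991 times. This ratio moves toward 1 as counts fall. Nfkbia had 92 UMIs in 681 microglia-like cells of library 1 and 39 UMIs in 4037 neuron-like cells. The values there cannot show whether the RNA was spread more evenly. Any inhibitor was seen in 34.3% of microglia-like cells of library 2 and 16.2% of those of library 1, while any subunit was seen in 26.5% of those of library 2 and 29.4% of those of library 1. In library 2, 9.38% of microglia-like cells held both an inhibitor and a subunit, and 1.32% held 4 or more of the 10 genes, with at most 6.

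To see what the cells with inhibitor RNA shared, the microglia-like cells of each library were split at their median count of UMIs from the 18 immediate early genes, at 1000 UMIs per cell. Those above the split are called IEG-high and the rest IEG-low. None of the 10 genes is on that list, and the split of library 1 was added after that of library 2 had been seen. In library 2 the 688 IEG-high cells had a median of 28 such UMIs and the 751 IEG-low cells a median of 2. The split lay at 7 UMIs with 98 cells within 1 UMI of it. In library 1 the split lay at 2 UMIs, with 280 IEG-high cells (median 4) and 401 IEG-low cells (median 1), and 431 cells lay within 1 UMI of it.

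In library 2 all 5 inhibitors were called higher in IEG-high cells. Nfkbia was at 1206 CPM in IEG-high cells and 110 CPM in IEG-low cells, a ratio of 11.0 (10.1 to 12.1). Nfkbiz was at 306 CPM in IEG-high cells and 17.0 CPM in IEG-low cells, with a ratio of 18.1 (14.4 to 23.0), the highest of the 10. Most of the UMIs of these genes were thus in IEG-high cells: 6383 of Nfkbia in IEG-high cells and 504 in IEG-low cells. Nfkbid had 118 CPM in IEG-high cells and 14.1 CPM in IEG-low cells, with a ratio of 8.35 (6.46 to 11.0). Tnfaip3 had 180 CPM in IEG-high cells and 20.9 CPM in IEG-low cells, with a ratio of 8.61 (6.97 to 10.7). Bcl3 was rare, at 3.97 CPM in IEG-high cells and 1.30 CPM in IEG-low cells, with a ratio of 3.04 (1.19 to 9.22).

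Of the 5 subunits, Relb alone was called, at 28.7 CPM in IEG-high cells and 10.9 CPM in IEG-low cells of library 2, with a ratio of 2.64 (1.91 to 3.72). Rela was at 59.9 CPM in IEG-high cells and 59.3 CPM in IEG-low cells, with a ratio of 1.01 (0.856 to 1.19). Rel was at 89.8 CPM in IEG-high cells and 104 CPM in IEG-low cells, with a ratio of 0.864 (0.760 to 0.983). For both, a 2-fold difference lies outside the counting interval. Nfkb1 was at 143 CPM in IEG-high cells and 159 CPM in IEG-low cells, with a ratio of 0.904 (0.816 to 1.00). Nfkb2, the other non-canonical subunit, had a ratio of 1.63 (1.03 to 2.60) and was not called. Thus 6 of 10 genes were called higher, with 2.46% of 13205 genes called higher, and 0 lower, with 3.71% called lower. Over the inhibitors the median log2 ratio was 3.11, over the subunits 0.01 and over all genes −0.20.

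Depth and markers of other cells were compared across the same split of library 2. Median depth was 7326 UMIs in IEG-high cells and 6085 in IEG-low cells, and the median share of mitochondrial UMIs was 4.93% in IEG-high cells and 4.41% in IEG-low cells. The 13 marker lists of other classes summed to 2726 CPM in IEG-high cells and 3249 CPM in IEG-low cells. The highest of them was the choroid plexus list, at 1549 CPM in IEG-high cells and 1893 CPM in IEG-low cells. Border-associated macrophage markers were at 11.5 CPM in IEG-high cells and 22.4 CPM in IEG-low cells, and monocyte or neutrophil markers at 237 CPM in IEG-high cells and 252 CPM in IEG-low cells. The fibroblast list alone was higher in IEG-high cells, at 4.54 CPM, than in IEG-low cells, at 2.61 CPM. The part of depth in the inhibitor ratios was not tested.

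In library 1 the same kind of split gave 0 of 9 genes higher, with 1.3% of 10732 genes called higher, and 0 lower, with 1.19% called lower. Nfkbia was at 111 CPM in IEG-high cells and 123 CPM in IEG-low cells, with a ratio of 0.899 (0.658 to 1.22). Nfkbiz had a ratio of 2.20 (0.923 to 5.47) from 15 UMIs in IEG-high cells and 10 in IEG-low cells, which passed the ratio limit but not the interval, and it alone was called under 3 of the other settings. The immediate early genes were less far apart across the split of this library, at 3469 CPM in IEG-high cells and 1729 CPM in IEG-low cells, than across that of library 2, at 34824 CPM in IEG-high cells and 3016 CPM in IEG-low cells. The Nfkbia level of the IEG-low cells of library 2 was 110 CPM, beside the 118 CPM (102 to 137) of all microglia-like cells of library 1. Whether the libraries differ in the relation of Nfkbia to the immediate early genes was not tested.

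A finer division put the microglia-like cells of library 2 into 4 groups of equal size, with 360, 360, 360 and 359 cells, from fewest to most immediate early UMIs. Nfkbia was at 90.7, 132, 429 and 1806 CPM in these groups. Nfkbiz was at 16.5, 17.1, 70.7 and 491 CPM, Tnfaip3 at 17.0, 25.3, 53.4 and 278 CPM, and Relb at 6.70, 12.9, 22.4 and 34.7 CPM. Most of the span of Nfkbiz and Tnfaip3 therefore lay between the last 2 groups. Nfkbid, at 4.91, 21.7, 79.0 and 146 CPM, was already higher in the second group than in the first. So was Nfkbia, with intervals of 78.6 to 104 CPM in the first group and 117 to 148 CPM in the second. Cells with equal counts at the edge of a group were placed in file order.

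**Figure D3:**
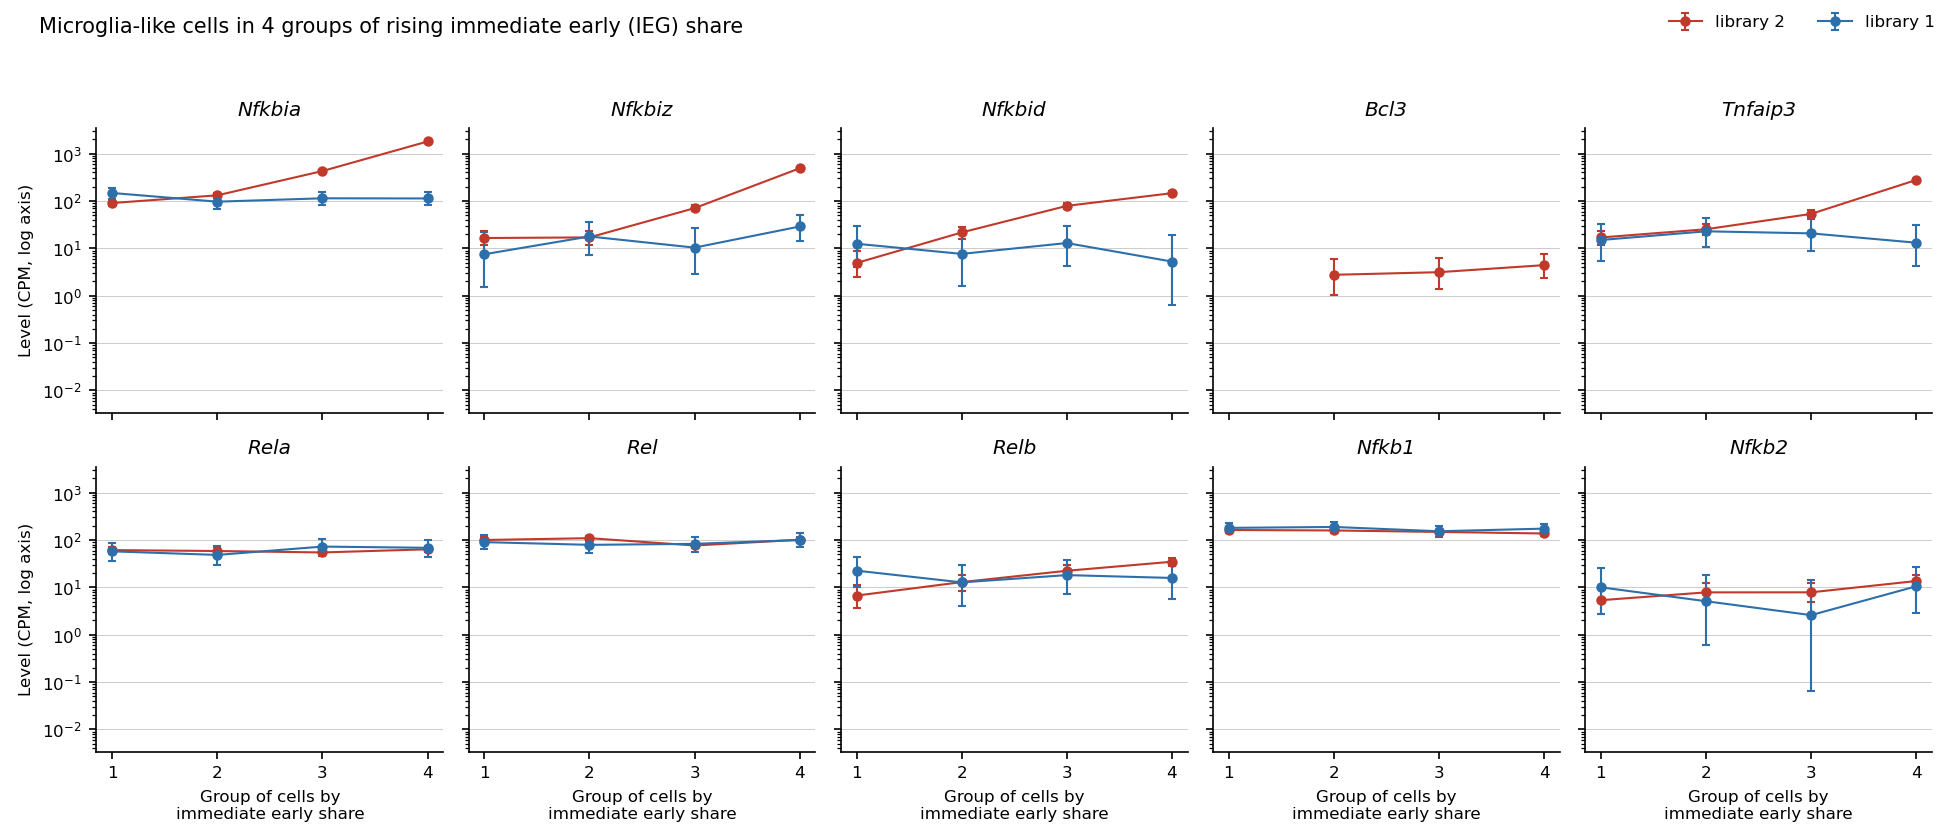
Level in CPM on a log axis of each gene in 4 groups of microglia-like cells by immediate early UMIs, from 1 (fewest) to 4 (most), library 2 in red and library 1 in blue, with 95% Poisson intervals. Missing points mean 0 UMIs. In library 2 Nfkbia reaches 1806 CPM and Nfkbiz 491 CPM in group 4, while Rela stays between 54.6 and 63.6 CPM.

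Counted as cells, the difference was of the same kind. At 1000 UMIs per cell, Nfkbia was seen in 47.8% (44.0 to 51.6%) of IEG-high cells and 8.66% (6.74 to 10.9%) of IEG-low cells of library 2, and Nfkbiz in 18.0% of IEG-high cells and 1.07% of IEG-low cells. At least 1 inhibitor was seen in 58.7% of IEG-high cells and 11.9% of IEG-low cells, and 2 or more inhibitors in 24.1% of IEG-high cells and 0.666% of IEG-low cells. For each of the subunits the intervals overlapped, with Nfkb1 in 15.4% (12.8 to 18.3%) of IEG-high cells and 13.8% (11.5 to 16.5%) of IEG-low cells. Relb, called by its level, was seen in 2.62% (1.56 to 4.10%) of IEG-high cells and 1.33% (0.640 to 2.44%) of IEG-low cells. In library 1 at least 1 inhibitor was seen in 16.1% of IEG-high cells and 16.2% of IEG-low cells.

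**Figure D4:**
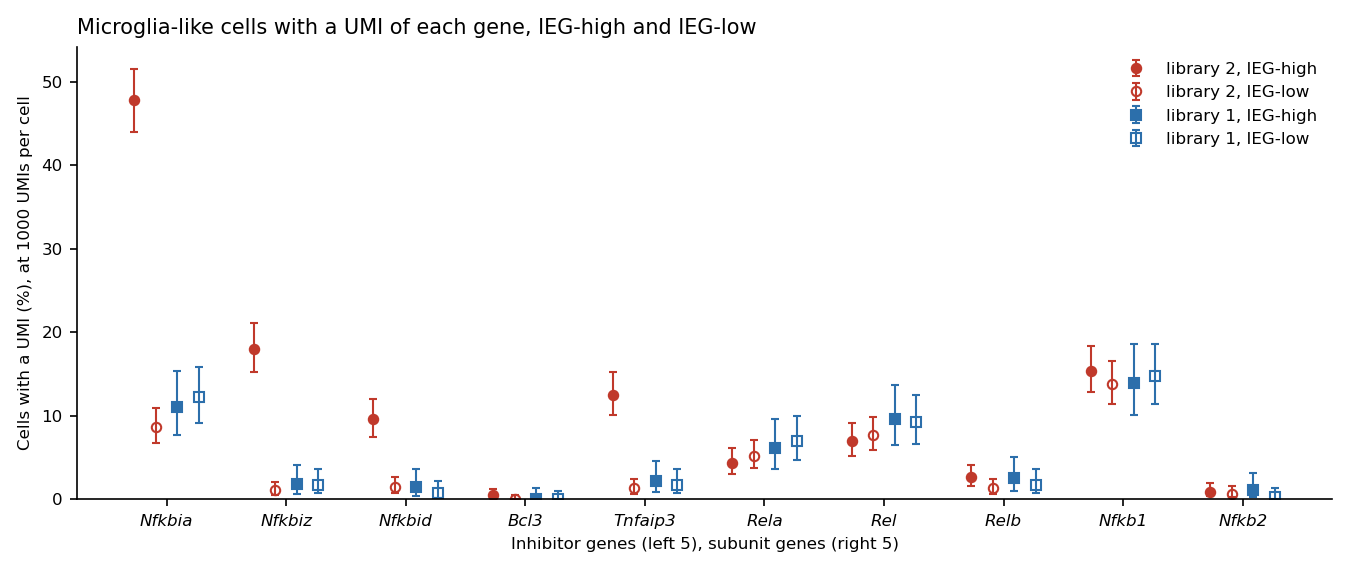
Percent of microglia-like cells with a UMI of each gene at 1000 UMIs per cell, in IEG-high (filled) and IEG-low (open) cells, library 2 as red circles and library 1 as blue squares, with exact 95% binomial intervals. In library 2 they stand apart for Nfkbia, at 47.8% of IEG-high and 8.66% of IEG-low cells, and their intervals overlap for Nfkb1, at 15.4% of IEG-high and 13.8% of IEG-low cells.

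The wider pathway was read from lists of its other inhibitors, its upstream signalling genes and its known targets. Across the split of library 2, 2.46% of all genes were called higher in IEG-high cells and 3.71% lower. Of 11 other inhibitors and regulators with enough UMIs, 1 was called higher in these IEG-high cells and 0 lower. It was Zc3h12a, which encodes an RNase that degrades inflammatory mRNAs, at 19.1 CPM in IEG-high cells and 8.91 CPM in IEG-low cells. The most abundant ones of this list were not called. Cyld, a deubiquitinase that restrains the pathway, was at 66.7 CPM in IEG-high cells and 79.8 CPM in IEG-low cells. N4bp1, Otud7b, Commd1 and Nfkbil1 had ratios of IEG-high over IEG-low of 0.774, 0.922, 0.870 and 0.973. Of 22 upstream genes 1 was called higher in IEG-high cells and 1 lower. Il1r1, the interleukin 1 receptor, was the higher one, at 2.65 CPM in IEG-high cells and 0.435 CPM in IEG-low cells, from few UMIs. Traf6, a ubiquitin ligase downstream of such receptors, was the lower one, at 7.94 CPM in IEG-high cells and 17.2 CPM in IEG-low cells. Cd14, a co-receptor for bacterial lipopolysaccharide, was at 496 CPM in IEG-high cells and 378 CPM in IEG-low cells, and the kinase gene Ikbkb at 85.6 CPM in IEG-high cells and 110.4 CPM in IEG-low cells. The tumour necrosis factor receptor genes Tnfrsf1a and Tnfrsf1b and the adaptor gene Tab2 had ratios of 0.861, 0.834 and 0.929. The median log2 ratio was −0.23 over the other inhibitors and −0.10 over the upstream genes, beside −0.20 over all genes.

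Of 21 known target genes 13 were called higher and 0 lower in IEG-high cells of library 2, with a median log2 ratio of 2.00. Of all genes, 2.46% were called higher and 3.71% lower. The chemokine gene Ccl3 was at 971 CPM in IEG-high cells and 82.4 CPM in IEG-low cells, and Ccl4 at 1829 CPM in IEG-high cells and 110.4 CPM in IEG-low cells. The adhesion molecule gene Icam1 was at 372 CPM in IEG-high cells and 94.3 CPM in IEG-low cells, and Cd83, found on the surface of activated dendritic and other immune cells, at 213 CPM in IEG-high cells and 52.6 CPM in IEG-low cells. The survival gene Bcl2a1b was not called, at 170 CPM in IEG-high cells and 150.2 CPM in IEG-low cells, and its near-identical copies make its count uncertain. In library 1, 4 of 15 targets were called higher in IEG-high cells (Ccl2, Ccl3, Ccl4 and Il1b) and 1 lower (Ccl5). The shares of all genes in that library were 1.3% higher and 1.19% lower. Ccl4 was there at 88.6 CPM in IEG-high cells and 5.40 CPM in IEG-low cells, although Nfkbia had the ratio of 0.899 given above. In library 1, 0 of 11 other inhibitors and 0 of 21 upstream genes were called in either direction.

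Between classes, 12 of 24 known targets were called higher in microglia-like than in endothelial-like cells of library 2 and 6 lower, where 20.2% of all genes were called higher and 20.1% lower. Icam1 was at 243 CPM in microglia-like cells and 363 CPM in endothelial-like cells, a ratio short of the limit, whereas Ccl4 was at 1030 CPM in microglia-like cells and 5.55 CPM in endothelial-like cells. Upstream genes were called higher in microglia-like cells for 8 of 23 against endothelial-like cells, with 2 lower. Against neuron-like cells of library 1 they were called higher for 12 of 22, with 4 lower, where 22.6% of all genes were called higher and 33.8% lower. Tnfrsf1b stood at 61.6 CPM in microglia-like cells and 0.765 CPM in neuron-like cells of library 1. Other inhibitors and regulators were called higher for 3 of 11 and lower for 3 of 11 against endothelial-like cells, which is near the share of all genes in each direction. Of the immediate early genes 5 of 18 were called higher and 4 lower in microglia-like than in endothelial-like cells, and 18 of 18 higher than in pericyte-like and in choroid plexus-like cells of library 2. Of all genes, 11.8% were called higher against pericyte-like and 22.9% against choroid plexus-like cells. The 4 called lower were Fosb, Nr4a1, Klf2 and Klf4, with Klf2 at 305 CPM in microglia-like cells and 3182 CPM in endothelial-like cells. In library 2 Jun was at 3533 CPM for microglia-like cells, 2656 CPM for endothelial-like cells, 92.0 CPM for pericyte-like cells and 40.5 CPM for choroid plexus-like cells. Zfp36, which encodes a protein that destabilises cytokine mRNAs, was at 1887 CPM for microglia-like cells and 1089 CPM for endothelial-like cells. Junb was at 2856 CPM for microglia-like cells and 1874 CPM for endothelial-like cells, Jund at 1939 CPM for microglia-like cells and 1562 CPM for endothelial-like cells, and Rhob at 2063 CPM for microglia-like cells and 548 CPM for endothelial-like cells. Of the other classes compared in library 2, endothelial-like cells were nearest to microglia-like cells in these 5 genes. For Rhob, pericyte-like cells, at 486 CPM, came close to endothelial-like cells. The 5 were named for their level in microglia-like cells and do not stand for the whole list.

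Finally, the genes with the most similar pattern were sought over the 9 class and library pairs, by Pearson correlation of log2(CPM + 10) among 8527 genes with at least 50 CPM in at least 1 pair. The pairs share libraries and differ in depth, so the values are a description. For Nfkbia these were Klf6, H2-K1, Hmgb2, Ctnnd1 and Mcl1, with correlations of 0.93 to 0.91. For Tnfaip3 they were Atf3, Gm26778, Ier5, Rgs1 and Btg2, with correlations of 0.94 to 0.93, of which Atf3, Ier5 and Btg2 are on the immediate early list. For Rela they were Tmem140, Ehd4, H2-D1, Eng and Hnrnpa0, with correlations of 0.99 to 0.97. Klf6, the only immediate early gene on the Nfkbia list, was no longer among its 5 nearest genes with 1 CPM added in place of 10.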

How the data were processed

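Raw UMI counts per gene and barcode, as deposited by the authors without normalization, were used for both libraries. The submitters' processing notes name Cell Ranger 3.0.1 and genome build GRCm38.p5. The members and lists were chosen with earlier results of these data known, and the groups by immediate early UMIs and by depth, the mitochondrial bins, the gauge genes and promoter letters were chosen after the data had been seen. Cells needed at least 1000 UMIs, 500 genes and at most 10% mitochondrial UMIs. Scrublet in scanpy 1.11.5 marked 12.8% of barcodes as doublets in library 1. In library 2 its automatic threshold marked 0.0%, so the expected share, 5.16%, was taken. A class needed at least 3 UMIs from at least 2 of its markers and 2 times the UMIs of every other list. Classes with at least 50 cells were compared. Counts were summed per class and divided by its total (CPM), with exact Poisson, binomial and conditional binomial 95% intervals from scipy 1.17.1, which cover counting error only. A count of 0 allows 3 counts. The ratio calls were tested on simulated Poisson counts, with known changes placed only in genes with many UMIs, and the thinning on a made-up cell. The gates, the doublet marking and the immediate early split were not tested in this way. The named genes of a list are the 5 with the highest mean CPM in microglia-like cells. Genes called alone in a direction, and some other called genes, were named after their values were seen. Alternatives were a mitochondrial limit of 20%, depth minimums of 2000 or 500 UMIs, no doublet removal, a gate of 5 times, Leiden clusters (leidenalg 0.10.2), CPM without mitochondrial, ribosomal protein and haemoglobin UMIs, equal weight per cell and a ratio limit of 4.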

Additional observations from a re-analysis of the deposited data

How the results depend on the processing

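No paired analysis was possible because neither library is assigned to a group and each is a single pool. No member called higher in a comparison was called lower in it under an alternative. Ratios of members called in neither direction could cross 1, as those of Rela and Relb did against pericyte-like cells of library 2 with a mitochondrial limit of 20%, where Rela stood at 57.7 CPM in microglia-like and 46.7 CPM in pericyte-like cells and Relb at 19.8 CPM in microglia-like and 19.5 CPM in pericyte-like cells. The 6 members called higher in IEG-high cells of library 2 were the same under all 8 alternatives run for them, as were the 4 called higher in microglia-like cells of library 2 over library 1. The ratio limit of 4 was not applied to these 2 comparisons. In library 1 Nfkbiz, and so 1 member in place of 0, was called higher in IEG-high cells with a mitochondrial limit of 20%, with no doublets removed and with a gate at 5 times the other lists. Against endothelial-like cells of library 2 the 4 lower members became 2 with each cell weighted equally and 1 at a ratio limit of 4. Against neuron-like cells of library 1 the 7 higher members became 4 at a ratio limit of 4. Against astrocyte-like cells the 3 higher members became 5 with at least 500 UMIs and 250 genes, 6 with each cell weighted equally and 1 at a ratio of 4. Against oligodendrocyte-like cells 3 became 5 with at least 500 UMIs and 250 genes, 5 with no doublets removed and 6 with each cell weighted equally. Against choroid plexus-like cells a mitochondrial limit of 20% gave 9 in place of 6 in library 2 and 6 in place of 4 in library 1. The cause of these shifts was not tested. With equal weights calls rest on the ratio alone. Leaving out mitochondrial, ribosomal protein and haemoglobin UMIs shifts all log2 ratios of microglia-like over neuron-like cells by 0.10 and adds Nfkbid to the higher ones. Comparisons left with under 50 cells were not run: choroid plexus-like cells of both libraries, astrocyte-like and oligodendrocyte-like cells with at least 2000 UMIs, pericyte-like cells with the gate of 5 times and both choroid plexus-like classes as Leiden clusters. With 1 CPM added, the likeness lists shared 4 of 5 genes for Nfkbia, 1 of 5 for Tnfaip3 and 3 of 5 for Rela. Counts under about 30 UMIs, which include Bcl3 in all classes but endothelial-like and most inhibitors in library 1, limit what can be told apart.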

Other observations

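The libraries are unassigned samples, and their ratio, library 2 over library 1, compares these 2 pools and no treatment. In microglia-like cells Nfkbia stood at 696 CPM in library 2 and 118 CPM in library 1, a ratio of 5.89 (5.09 to 6.86). Nfkbiz had a ratio of 10.7 (7.21 to 16.6), Nfkbid of 7.23 and Tnfaip3 of 5.88 (4.05 to 8.89). Bcl3 had 0 UMIs in library 1. Read as 3 counts, this gave a ratio of 1.42, and Bcl3 was not called. The subunits ran from 0.865 for Nfkb1 to 1.27 for Nfkb2, and none passed a ratio of 2. Of 10 members 4 were called higher in library 2, all inhibitors, against 2.86% of 14188 genes, and 0 lower, against 13.7%. The median log2 ratio of all genes was −0.25. Of the other inhibitors and regulators 0 of 11 were called, and of upstream genes 0 of 22 were higher and 3 lower. Of known targets 11 of 21 were higher and 1 lower, and of immediate early genes 18 of 18 were higher. The lower target was Ccl5, at 1.52 CPM in library 2 and 33.4 CPM in library 1. Median depth was 6542 UMIs per microglia-like cell in library 2 and 2207 in library 1, and its part in these ratios was not tested.

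In choroid plexus-like cells, the other class large enough in both libraries, 3 members had 10 or more UMIs. Nfkbia stood at 40.5 CPM in library 2 and 23.9 CPM in library 1, a ratio of 1.69 (0.612 to 5.80). Rela had a ratio of 1.52 (0.537 to 5.25), and neither of these was called. Nfkb1 was called higher, at 36.2 CPM in library 2 and 4.78 CPM in library 1, where it rests on 1 UMI. Of 6845 genes compared, 7.71% were called higher and 6.6% lower.

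In microglia-like cells of library 2, with those above the mitochondrial limit added, Nfkbia stood at 572 CPM with up to 5% mitochondrial UMIs, 863 CPM from 5 to 10%, 722 CPM from 10 to 20% and 710 CPM above 20%, where 43 cells remained. These totals include the mitochondrial UMIs that define the bins. Without mitochondrial, ribosomal protein and haemoglobin UMIs the Nfkbia levels were 648, 1034, 927 and 1123 CPM, and those of Nfkb1 were 184, 161, 142 and 189.6 CPM, the last from 13 UMIs.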
